A study of Mus musculus with 4 samples.

Results

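Cyclin-dependent kinase (CDK) inhibitors and the retinoblastoma (RB) family are the brakes of the G1 phase of the cell cycle, and their transcripts are described here in mouse testes that carry a dominant-negative thyroid hormone receptor in Sertoli cells. The 10 genes were chosen by symbol, with earlier results of these data known. They include the CIP/KIP inhibitors Cdkn1a, Cdkn1b and Cdkn1c and the INK4 inhibitors Cdkn2a, Cdkn2b, Cdkn2c and Cdkn2d. The RB family genes among them are Rb1, Rbl1 and Rbl2. All 10 are among the 22609 genes of the count table, and all 10 passed the filter on low counts that left 14788 genes for testing. The mutant group holds 2 libraries labelled with a dominant-negative form of thyroid hormone receptor alpha 1, and the wild-type group holds 2 libraries labelled with the wild-type receptor. All 4 are polyadenylated RNA of whole testes from mice at postnatal day 3 on a mainly C57BL/6J background. The mice came from crosses of AmhCre animals, in which the promoter of the Sertoli cell gene Amh drives Cre recombinase, with TRαAMI heterozygotes, and which of these alleles the wild-type animals carried is not stated in the labels. Whether a library is 1 animal or a pool is not given in the labels, so p-values reflect the spread between these samples, which may be technical. Levels are in CPM, the counts of a gene scaled to a common library size with edgeR's TMM factors. Paired values are given for replicate 1 and then replicate 2 of a group.

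CIP/KIP proteins bind cyclin-CDK complexes and can block CDK2, while INK4 proteins bind CDK4 and CDK6 and keep D-type cyclins from activating them. Active CDKs phosphorylate the RB family proteins, which otherwise hold E2F transcription factors inactive on the promoters of genes for DNA replication. Sertoli cells divide in fetal and neonatal life and then stop, and thyroid hormone is known to bring on that arrest and to raise the CDK inhibitors p27 and p21, the products of Cdkn1b and Cdkn1a, in these cells.

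In mutant testes 2 members rose and 1 fell. Cdkn1a and Cdkn1c were each about 2-fold higher, and Cdkn2a was 2.62-fold lower. Cdkn1b differed by 0.07 on the log2 scale, within its error, and none of the 3 RB family genes was called. By edgeR's quasi-likelihood test with Benjamini-Hochberg adjustment over all tested genes (adjusted p below 0.05), the members called were 2 higher and 1 lower of 10, against 3.15% called higher, 2.52% called lower and 5.67% called in either direction among all 14788 genes. The median log2 fold change of the 10 members was 0.02, beside -0.01 over all tested genes, and 5 members had positive and 5 negative values. With each library left out in turn, the log2 value lay between 0.76 and 1.38 for Cdkn1a and between 0.83 and 1.23 for Cdkn1c. For Cdkn2a it lay between -1.53 and -1.24. The 3 calls did not hold in every such fit. Far fewer of all tested genes were called when a wild-type library was left out. With 1 library left in a group, the spread within that group cannot be seen, so such a fit does not test it.

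**Figure D1:**
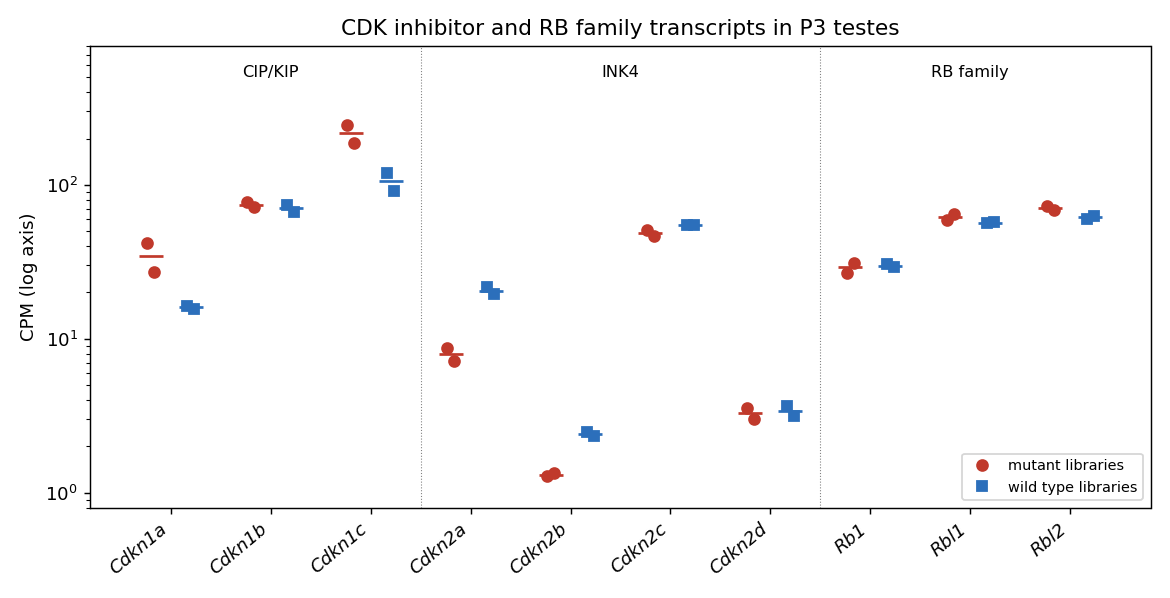
CPM (log axis) of the 10 genes in each library, with mutant libraries as circles to the left and wild-type libraries as squares to the right of each gene, and short lines at the group means. Cdkn1a and Cdkn1c lie higher and Cdkn2a lower in both mutant libraries, while the points of Cdkn1b, Cdkn2d and Rb1 overlap between the groups.

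Gene counts per library were 11089136 and 15636832 for mutant and 13228903 and 10230512 for wild type. Sertoli cell markers were abundant in every library, with 12 markers summing to 5474 and 5417 CPM in mutant and 5843 and 6087 CPM in the wild-type libraries. Of the 12, Cldn11 (-1.22 on the log2 scale) and Gata1 (-1.40) were called lower, as were 2.52% of all tested genes. In both mutant libraries 5 of the 12 lay lower and 2 higher, beside 29% and 28.3% of all tested genes. The libraries also differed in other cell types. Skeletal muscle markers (10 genes) summed to 2333 and 607 CPM in the mutant libraries, against 16.1 and 14.8 CPM in the wild-type libraries, and all 10 lay higher in both mutant libraries. Myog, a regulator of muscle differentiation, was at 21.4 and 1.98 CPM in the mutant libraries, with 0 counts in both wild-type libraries. Germ cell markers (12 genes) summed to 317 and 281 CPM in mutant and 764 and 531 CPM in the wild-type libraries. Thra, which encodes the receptor, was read at 237 and 194 CPM in mutant and 397 and 257 CPM in wild-type libraries and was not called (edgeR adjusted p = 0.0965), with a log2 fold change of -0.60 ± 0.19 (SE). Leaving out mutant replicate 1 gave -0.75 (adjusted p = 0.00556) and leaving out wild-type replicate 2 gave -0.89 (adjusted p = 0.0461), both called. Leaving out mutant replicate 2 gave -0.47 (adjusted p = 0.101) and leaving out wild-type replicate 1 gave -0.26 (adjusted p = 0.319), neither called. Counts per gene cannot separate its normal from its mutant transcript. In whole testes, fewer cells of a type and less RNA per cell cannot be told apart.

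The sequences before the starts of Cdkn1a and Cdkn2a are given because both were called and each has a pair of annotated starts that counts per gene pool. At Cdkn2a these give different proteins: transcripts from the upstream start encode p19Arf, which stabilises p53, and those from the downstream start encode p16Ink4a, the CDK4 and CDK6 inhibitor. The windows are the 250 bases before each start in RefSeq (GRCm38.p6), 5′ to 3′ on the gene's strand, and 8 of the 10 members had an entry, with Cdkn1c, the other called gene, and Rb1 not among them. Capitals mark matches, on either strand, to the GC box GGGCGG, the promoter element called CCAAT box, the TATA box in the form TATAAA, the half-site AGGTCA bound by thyroid hormone and other nuclear receptors, the p53 core pair made of the word CATG repeated after any 6 bases, or the E2F words TTTCGCGC, TTTGGCGC, TTTCCCGC and TTTGCCGC.
Cdkn1a upstream start (chr17:29090729-29090978, plus strand): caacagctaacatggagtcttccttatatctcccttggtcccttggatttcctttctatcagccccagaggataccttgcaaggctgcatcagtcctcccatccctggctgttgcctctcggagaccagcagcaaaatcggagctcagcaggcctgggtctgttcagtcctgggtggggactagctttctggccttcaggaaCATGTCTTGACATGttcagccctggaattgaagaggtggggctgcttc
Cdkn1a downstream start (chr17:29093519-29093768, plus strand): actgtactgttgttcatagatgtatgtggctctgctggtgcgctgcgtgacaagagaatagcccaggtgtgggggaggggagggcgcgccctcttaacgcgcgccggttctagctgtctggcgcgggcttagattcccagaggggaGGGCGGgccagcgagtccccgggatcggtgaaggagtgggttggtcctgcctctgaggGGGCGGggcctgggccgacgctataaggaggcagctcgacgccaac
Cdkn2a upstream start, Arf (chr4:89294620-89294869, minus strand): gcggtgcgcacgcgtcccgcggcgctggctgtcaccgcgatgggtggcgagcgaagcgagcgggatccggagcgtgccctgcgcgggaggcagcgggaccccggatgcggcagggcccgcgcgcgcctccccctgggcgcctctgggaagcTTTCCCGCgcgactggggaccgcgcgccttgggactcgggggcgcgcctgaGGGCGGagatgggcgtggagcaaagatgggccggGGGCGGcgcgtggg
Cdkn2a downstream start, Ink4a (chr4:89282193-89282442, minus strand): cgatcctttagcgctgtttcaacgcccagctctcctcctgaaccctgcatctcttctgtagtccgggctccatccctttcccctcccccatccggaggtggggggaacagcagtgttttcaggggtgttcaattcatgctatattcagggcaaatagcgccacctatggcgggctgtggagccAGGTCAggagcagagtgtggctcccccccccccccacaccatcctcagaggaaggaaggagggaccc
The upstream Cdkn1a window holds the p53 core pair, which occurs in 0.49% of the 32851 promoter windows of this length, and this word was searched after the window had been read. The downstream Cdkn1a window holds 2 GC boxes, a word found in 32.7% of windows. The Arf window holds 1 E2F word and 2 GC boxes, and an E2F word occurs in 1.86% of windows. Rbl1 was the other member with an E2F word before its start. The Ink4a window holds 1 AGGTCA half-site, as 14% of windows do. CCAAT occurs in 33.8% of windows and TATAAA in 12.4%, and neither is in these 4. A match is a description of the letters and not a measured site.

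Cdkn1c encodes p57, the inhibitor that is imprinted and expressed from the maternal chromosome, and it was the most abundant member. Cdkn1c (chromosome 7, 150644255 to 150646955, minus strand in mm9) had 244 and 188 CPM in the mutant libraries, against 119 and 91.7 CPM in the wild-type libraries. Both mutant libraries lay above both wild-type libraries. The group means were 216 ± 39.9 CPM in mutant and 106 ± 19.6 CPM in wild-type testes (SD, n = 2 each). Its log2 fold change was 1.03 ± 0.16 (SE), with a 95% interval of 0.67 to 1.39 (edgeR adjusted p = 0.0166). With mutant replicate 1 left out the value was 0.83, and with mutant replicate 2 left out it was 1.21. With wild-type replicate 1 left out it was 1.23 and no longer called (adjusted p = 0.0675), and likewise 0.85 with wild-type replicate 2 left out (adjusted p = 0.0789).

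Cdkn1a encodes p21, the inhibitor best known as a target of p53 and as a marker of cell cycle exit in differentiating cells. Cdkn1a (chromosome 17, 29227924 to 29237667, plus strand) was read at 42.0 and 27.3 CPM in the mutant libraries, against 16.4 and 15.7 CPM in the wild-type libraries. The groups did not overlap, and the mutant libraries stood further apart than the wild-type pair, with a mean of 34.7 ± 10.4 CPM in mutant and 16.1 ± 0.538 CPM in wild-type testes (SD, n = 2 each). Its log2 fold change was 1.09 ± 0.21 (SE), with a 95% interval of 0.61 to 1.58 (edgeR adjusted p = 0.0296). Leaving out mutant replicate 1 gave 0.76, and leaving out mutant replicate 2 gave 1.38. Cdkn1a was not called when wild-type replicate 1 (1.13, adjusted p = 0.136) or wild-type replicate 2 (1.06, adjusted p = 0.124) was left out, nor by limma voom (1.03, adjusted p = 0.0513).

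The higher of the mutant libraries was the same for both genes. Mutant replicate 1, the library with more skeletal muscle transcripts, exceeded mutant replicate 2 by 53.9% for Cdkn1a and by 30.0% for Cdkn1c. For Cdkn1c the step between the libraries was as large in wild type, where the muscle sums were close to each other: on the log2 scale replicate 1 exceeded replicate 2 by 0.38 in mutant and by 0.38 in wild type. For Cdkn1a this log2 step was 0.62 in mutant and 0.07 in wild type. Among the other members the step between the mutant libraries ran from -13.7% for Rb1 to 22.2% for Cdkn2a, with 18.3% for Cdkn2d and 8.50% for Cdkn1b. A step between 2 libraries of a group does not settle the source of a difference between the groups. Of all tested genes 3.15% were called higher. Markers of mesothelium (4 genes, all called higher) and macrophages (8 genes, 3 called higher) were also higher in mutant testes. Their sums were higher in mutant replicate 2 than in mutant replicate 1. Mesothelial markers summed to 301 and 378 CPM in mutant and 152 and 189 CPM in wild-type libraries, and macrophage markers to 245 and 324 CPM in mutant and 168 and 189 CPM in wild-type libraries. Of 5 adipocyte markers 4 were tested and 3 called lower, beside 2.52% of all tested genes. Adipocyte markers summed to 27.4 and 26.2 CPM in mutant and 73.5 and 81.6 CPM in wild-type libraries. No Leydig, peritubular or endothelial marker of 6 each was called. Leydig markers summed to 1167 and 1147 CPM in mutant and 956 and 1068 CPM in wild-type libraries. Endothelial markers summed to 322 and 276 CPM in mutant and 251 and 246 CPM in wild-type libraries. Peritubular markers summed to 1826 and 1531 CPM in mutant and 1653 and 1599 CPM in wild-type libraries. Differentiating muscle is known to express p21 and p57, and the part of RNA from muscle, mesothelium, macrophages or other cells in these rises was not tested. In mutant replicate 2 alone, set against both wild-type libraries, both rises were smaller. The log2 values were 0.76 for Cdkn1a and 0.83 for Cdkn1c. That library still held 607 CPM of summed muscle markers, against 16.1 and 14.8 CPM in the wild-type libraries, so this fit cannot set muscle RNA apart.

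**Figure D2:**
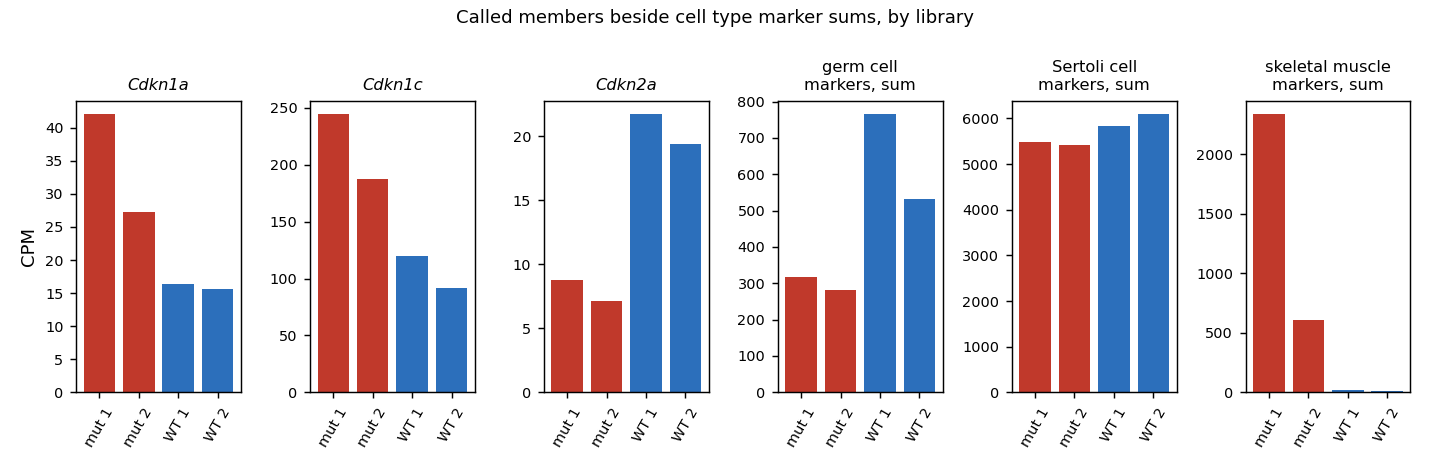
CPM of the 3 called genes and summed CPM of germ cell (12 genes), Sertoli cell (12 genes) and skeletal muscle (10 genes) markers in mutant (mut, red) and wild-type (WT, blue) libraries, each panel on its own axis from 0. Cdkn1a and Cdkn1c are highest in mutant replicate 1, which also has the most muscle transcripts, Cdkn1c differs by a like step between the wild-type libraries, and Cdkn2a is lower in the libraries with fewer germ cell transcripts.

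Cdkn1b encodes p27, the inhibitor whose loss in mice gives larger organs, testes included. Cdkn1b (chromosome 6, 134870419 to 134875531, plus strand) was read at 77.4 and 71.3 CPM in the mutant libraries, against 74.5 and 66.8 CPM in the wild-type libraries. The groups overlapped, and the log2 fold change of 0.07 ± 0.10 was not called (adjusted p = 0.707). The 95% interval of -0.16 to 0.30 bounds the difference of the whole-testis transcript, and does not exclude a difference within Sertoli cells alone. As a ratio of CPM, Cdkn1c stood at 3.16 and 2.63 times Cdkn1b in mutant and at 1.60 and 1.37 times Cdkn1b in the wild-type libraries. The 3 CIP/KIP genes together summed to 364 and 286 CPM in mutant and 210 and 174 CPM in wild-type libraries.

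Cdkn2a fell, with the smallest p of the members. Cdkn2a (chromosome 4, 88920377 to 88940557, minus strand) was read at 8.73 and 7.14 CPM in the mutant libraries, from 96 and 112 counts, against 21.7 and 19.4 CPM in the wild-type libraries, from 289 and 198 counts. Both mutant libraries lay below both wild-type libraries. Its log2 fold change was -1.39 ± 0.19 (SE), with a 95% interval of -1.82 to -0.96 (edgeR adjusted p = 0.0104). Over the fits that left out a library its value lay between -1.53 and -1.24. Without wild-type replicate 1 it stood at -1.31 and was not called. Transcripts for p19Arf and p16Ink4a share exons, so the fall cannot be assigned to either product.

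Germ cell transcripts were also lower in mutant testes, as were adipocyte markers and the Sertoli cell genes Cldn11 and Gata1. Of 11 germ cell markers tested 8 were called lower, beside 2.52% of all tested genes, and none higher. Ddx4, an RNA helicase of germ cells, was read at 63.6 and 49.5 CPM in mutant and 110 and 84.6 CPM in the wild-type libraries (-0.80 ± 0.16 on the log2 scale, edgeR adjusted p = 0.0304). Ddx4 was not called without wild-type replicate 1 (-0.59, adjusted p = 0.140) or without wild-type replicate 2 (-0.97, adjusted p = 0.0581). Per 100 CPM of summed germ cell markers, Cdkn2a stood at 2.75 and 2.55 CPM in mutant and 2.84 and 3.65 CPM in the wild-type libraries, a ratio computed after the values were seen. On that scale the mutant libraries lay just below wild-type replicate 1 and further below wild-type replicate 2. Between the wild-type libraries the germ cell sum was 764 and 531 CPM, while Cdkn2a was at 21.7 and 19.4 CPM. The part of germ cell number, or of other cell types, in the fall was not tested.

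Cdkn2b, which encodes p15 and lies 11641 bases from Cdkn2a on chromosome 4 (88952198 to 88956941, minus strand), was the member with the fewest reads. It was read at 1.27 and 1.34 CPM in the mutant libraries, from 14 and 21 counts, against 2.48 and 2.35 CPM in the wild-type libraries, from 33 and 24 counts. The groups did not overlap, and the log2 fold change was -0.88 ± 0.35 with an unadjusted p of 0.0371 that did not survive adjustment (adjusted p = 0.169). At this depth the 95% interval of -1.69 to -0.07 is wide.

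Among the 7 tested genes within 1000 kb of Cdkn2a, itself included, 2 were called lower, Cdkn2a and Dmrta1. The window was centred on a called gene, so only Dmrta1 adds a call, and 2.52% of all tested genes were called lower. Dmrta1, a DM domain factor gene 406 kb beyond Cdkn2a on the side of Cdkn2b, was read at 19.9 and 19.8 CPM in mutant and 48.0 and 50.4 CPM in the wild-type libraries, a log2 fold change of -1.31 ± 0.12 (adjusted p = 0.00444). Mtap, a methionine salvage enzyme gene 93.4 kb from Cdkn2a on the other side, was at 0.09 ± 0.09 and not called. The 3 genes further out on that side had positive values, 0.17 for Klhl9, 0.18 for BC057079 and 0.88 for Ptplad2, and none was called. Over all members, only the nearest tested gene on each side was looked at. Of 18 such genes that are not members, 1 was called, which is Dmrta1, beside 5.67% of all tested genes.

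**Figure D3:**
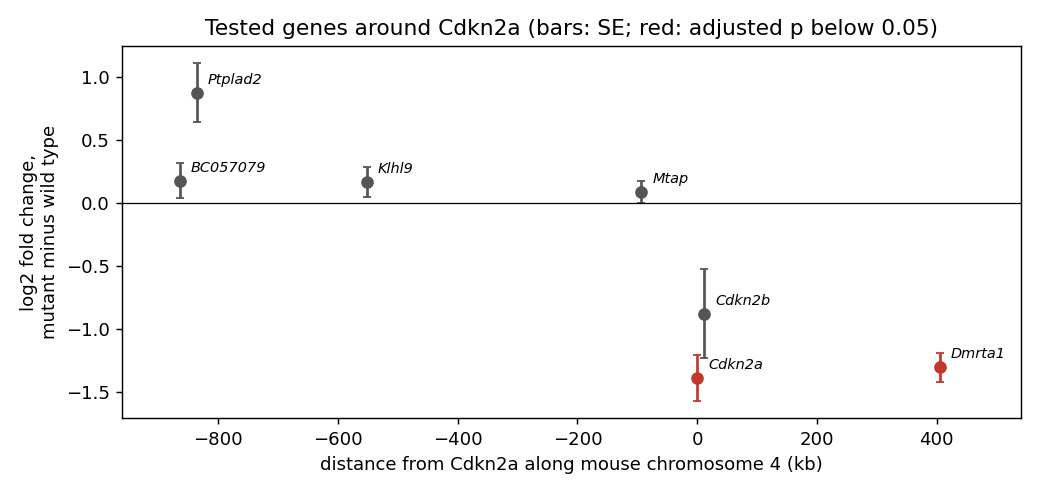
Log2 fold change (mutant minus wild type, bars show the SE) of the 7 tested genes within 1000 kb of Cdkn2a, against their distance from it along chromosome 4 in kb. Cdkn2a, Cdkn2b and Dmrta1 lie next to each other and are negative, and Cdkn2b (adjusted p = 0.169) was not called.

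The remaining INK4 genes, Cdkn2c and Cdkn2d, were not called. Cdkn2c, which encodes p18, another CDK4 and CDK6 inhibitor, was read at 50.7 and 46.5 CPM in mutant and 55.1 and 55.0 CPM in the wild-type libraries. Its groups did not overlap, yet the log2 fold change of -0.18 ± 0.10 was not called (adjusted p = 0.304). Cdkn2d, which encodes p19Ink4d, was read at 3.55 and 3.00 CPM in mutant and 3.68 and 3.13 CPM in the wild-type libraries, with overlapping groups and a 95% interval of -0.76 to 0.59. The 4 INK4 genes together summed to 64.3 and 58.0 CPM in mutant and 82.9 and 79.9 CPM in wild-type libraries. Most of that sum was Cdkn2c in every library.

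No RB family gene was called. Rb1, the retinoblastoma gene (chromosome 14, 73583480 to 73725629, minus strand), was read at 26.9 and 31.2 CPM in mutant and 30.5 and 29.3 CPM in the wild-type libraries, with overlapping groups. Its 95% interval was -0.34 to 0.26 (adjusted p = 0.889). Rbl1 encodes p107, which pairs with E2F4 and is itself an E2F target. It was read at 59.0 and 64.4 CPM in mutant and 56.6 and 57.2 CPM in the wild-type libraries, a log2 fold change of 0.12 ± 0.10 (adjusted p = 0.486). Rbl2 encodes p130, the RB family member of resting cells. It was read at 73.2 and 68.2 CPM in mutant and 59.9 and 63.1 CPM in the wild-type libraries, a log2 fold change of 0.20 ± 0.10 with a 95% interval of -0.02 to 0.42 (adjusted p = 0.231). Both mutant libraries lay above both wild-type libraries for Rbl1 and Rbl2. Groups did not overlap in 7 of the 10 members, beside 57.2% of all tested genes: 4 members lay higher in both mutant libraries (28.3% of all tested genes did) and 3 lower (29% did). Exons of Rb1 share 408 bases with Lpar6 and 488 with Rcbtb2, and those of Rbl2 share 693 bases with Aktip, each on the opposite strand. Whether the counting used strand is not given in the sources used here, and reads there may be missing or misassigned. Lpar6, Rcbtb2 and Aktip were not called.

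**Figure D4:**
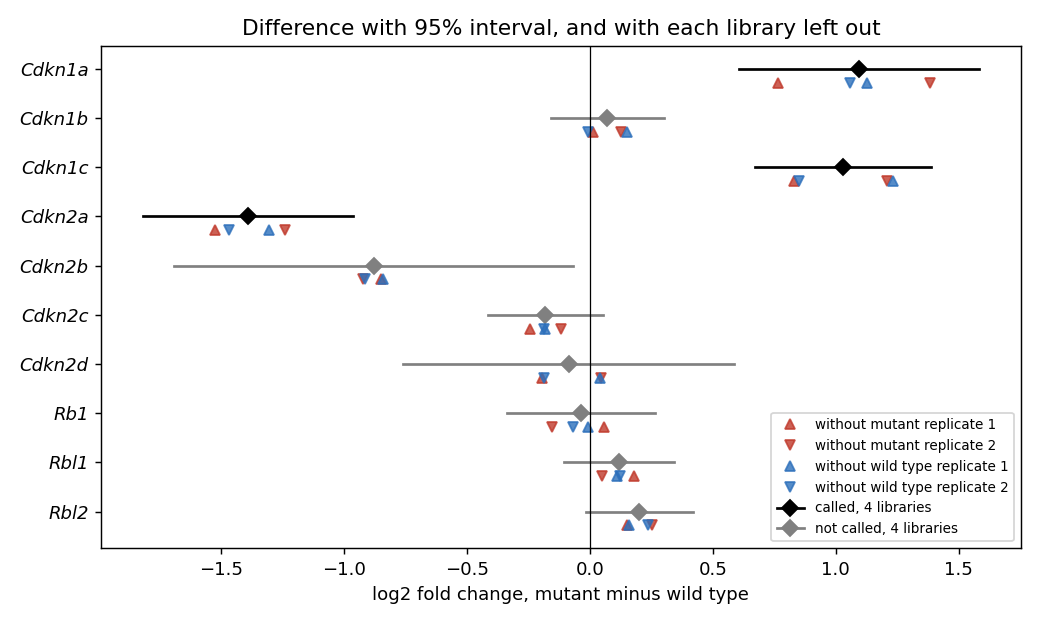
Log2 fold change (mutant minus wild type) of the 10 genes with all 4 libraries (diamonds, lines show the unadjusted 95% interval) and with each library left out (triangles). Cdkn1a, Cdkn1c and Cdkn2a stay on one side of 0 in every case, while Cdkn1b, Cdkn2d and Rb1 lie on both sides.

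Scaled to the length of their merged exons, in CPM per kb, most members kept their place, and Cdkn1a, Cdkn1b and Cdkn2a changed theirs. Cdkn1c stood first at 112 CPM per kb in mutant and 54.6 CPM per kb in wild-type testes, far above Cdkn2c, the next, at 18.1 in mutant and 20.5 in wild-type testes. Cdkn2a stood at place 7 in mutant testes with 6.78 CPM per kb and at place 3 in wild-type testes with 17.6 CPM per kb. Cdkn1a stood at place 4 in mutant testes with 15.6 CPM per kb and at place 7 in wild-type testes with 7.22 CPM per kb. Cdkn1b was at 16.3 CPM per kb in mutant and 15.5 in wild-type testes. In mutant libraries the level of Cdkn1a, 18.9 and 12.3 CPM per kb, overlapped those of Cdkn2c and Cdkn1b. Rbl1 and Rbl2 followed each other in both groups, at 10.3 and 10.2 CPM per kb in mutant testes, where they overlapped, and at 9.50 and 8.83 in wild-type testes. Rb1 was at 4.83 CPM per kb in mutant and 4.97 in wild-type testes, Cdkn2d at 2.57 and Cdkn2b at 0.938 in mutant, and Cdkn2d at 2.68 and Cdkn2b at 1.73 in wild-type testes. The exon lengths are those of GENCODE M1 and may differ from the annotation used for counting.

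Most genes that these inhibitors act on, or through, were not called, like most tested genes. In the 8 lists of surrounding pathway genes, 111 genes in all and each tested, 1 was called, which is 0 higher and 1 lower. Their median log2 fold change was -0.04. Over all 14788 tested genes 5.67% were called, so a short list with no call says little about its genes. Among these 111 genes 24 had an unadjusted p below 0.05, as did 3773 of all 14788 tested genes. DESeq2 called 4 of the 111, beside 985 of all 15471 genes it tested. By limma voom 1 of the 111 was called, beside 581 of all 14788.

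The kinases and cyclins that the inhibitors bind gave no calls among 14 genes (5 at an unadjusted p below 0.05, median -0.10). DESeq2 called 2 of them higher and limma voom none. These were the D-type cyclin genes Ccnd2 and Ccnd3. Ccnd2, the D cyclin whose loss in mice gives small testes, was read at 851 and 783 CPM in mutant and 647 and 681 CPM in the wild-type libraries, a log2 fold change of 0.30 ± 0.09 (edgeR adjusted p = 0.0991). Ccnd3 was read at 302 and 254 CPM in mutant and 224 and 203 CPM in the wild-type libraries, at 0.38 ± 0.11 (edgeR adjusted p = 0.0724), and passed at 0.50 when mutant replicate 2 was left out (adjusted p = 0.0179). Cdk4, the partner of both, was at -0.08 ± 0.09.

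The E2F and DP factors held in check by the RB family gave no edgeR calls among 10 genes (2 at an unadjusted p below 0.05, none by DESeq2 or voom, median 0.14). E2f1, an activating member, was read at 71.7 and 80.3 CPM in mutant and 89.2 and 89.8 CPM in the wild-type libraries (-0.23 ± 0.09, adjusted p = 0.170). E2f4, the partner of p107 and p130, was read at 72.3 and 76.5 CPM in mutant and 62.4 and 65.2 CPM in the wild-type libraries (0.22 ± 0.09, adjusted p = 0.181). MuvB proteins join p107 or p130 in a complex that silences cell cycle genes, and join the Myb factor B-Myb in one that activates them. The 7 MuvB and Myb genes had no call by edgeR, none by DESeq2 or limma voom, and none at an unadjusted p below 0.05. Lin54, the DNA-binding subunit, was at 0.23 ± 0.11 and the histone-binding subunit gene Rbbp4 at -0.18 ± 0.09.

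Of 26 E2F target genes of S phase 1 fell and none rose, with a median of -0.06, and 21 of the 26 values were negative, beside 7514 of the 14788 values of all tested genes. The gene was Ung, a uracil glycosylase of DNA repair, read at 74.0 and 82.8 CPM in mutant and 108 and 104 CPM in the wild-type libraries (-0.43 ± 0.09, adjusted p = 0.0388). Ung was called in 1 of the 4 fits that left out a library, that without mutant replicate 2, and its values lay between -0.52 and -0.35 over them. The 14 mitotic genes had no edgeR call (1 at an unadjusted p below 0.05, none by DESeq2 or voom, median -0.06). Mki67, the common marker of dividing cells, was read at 235 and 270 CPM in mutant and 239 and 197 CPM in the wild-type libraries, with overlapping groups (0.21 ± 0.12, adjusted p = 0.294). Cenpa, the histone of centromeres, was at -0.32 ± 0.10 (adjusted p = 0.0932).

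Among 9 genes that act in the turnover of p27 protein edgeR called none (2 at an unadjusted p below 0.05, median -0.10), DESeq2 called 1 and limma voom 0. That gene was Skp1a, a subunit of the ubiquitin ligase, at -0.34 ± 0.09 (edgeR adjusted p = 0.0627), and Cks1b, the cofactor that brings p27 to the ligase, was at -0.29 ± 0.09 (adjusted p = 0.0941). Of 23 upstream regulators edgeR called none (6 at an unadjusted p below 0.05, none by DESeq2 or voom, median -0.02). Trp53, whose protein activates Cdkn1a, was read at 106 and 105 CPM in mutant and 86.2 and 85.1 CPM in the wild-type libraries (0.30 ± 0.08, adjusted p = 0.0713). Mdm2, another p53 target and its inhibitor, named after its value was seen, was at -0.0035 ± 0.13. Mycn, a growth-promoting factor, was at -0.36 ± 0.10 (adjusted p = 0.0683).

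Cdkn1c lies in an imprinted domain of chromosome 7, and of 8 other genes of that domain edgeR called none (2 at an unadjusted p below 0.05, none by DESeq2 or voom, median -0.09). Kcnq1ot1, the noncoding RNA that silences Cdkn1c on the paternal chromosome, was read at 7.09 and 8.61 CPM in mutant and 5.93 and 7.64 CPM in the wild-type libraries, with overlapping groups, and was chosen after its value was seen. Cd81, a tetraspanin gene, was at 0.24 ± 0.10 (adjusted p = 0.170). Ascl2, a transcription factor best known from the placenta, had 11 and 16 counts in mutant and 57 and 22 counts in the wild-type libraries, and its value of -1.71 ± 0.45 was not called (adjusted p = 0.0651).

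**Figure D5:**
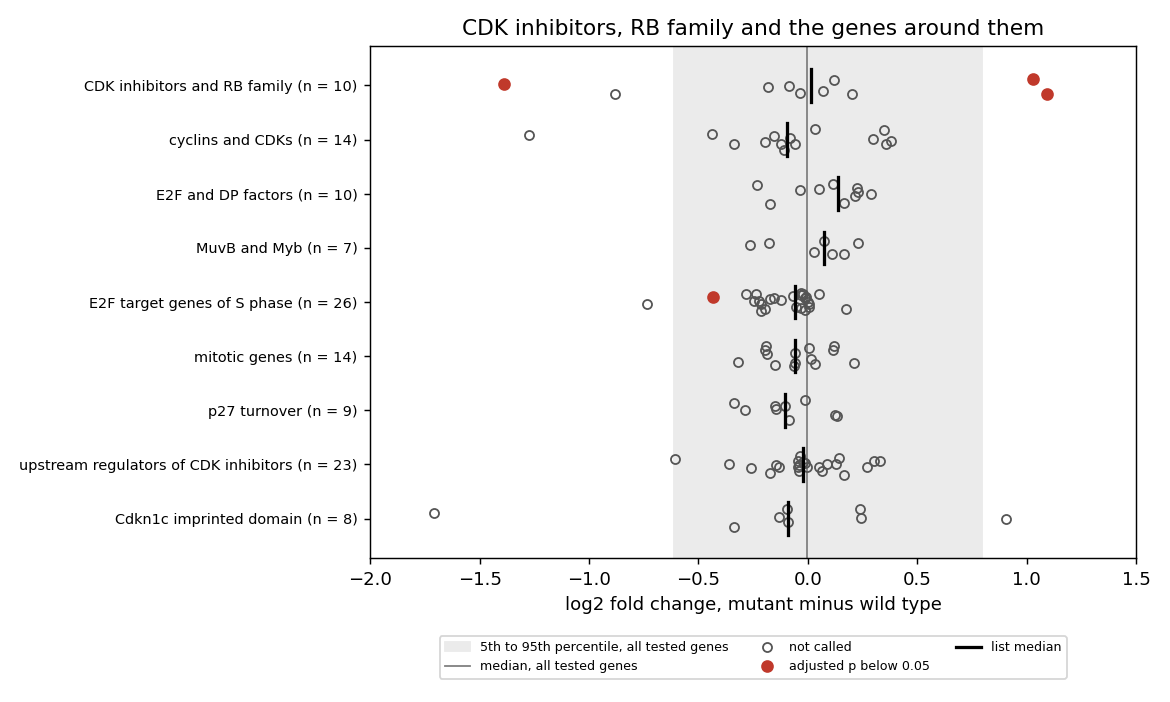
Log2 fold change (mutant minus wild type) of each tested gene in the family and in 8 lists of surrounding genes, with filled circles for calls, black lines at list medians, a grey line at the median and a grey band over the 5th to 95th percentile of all tested genes. The calls are Cdkn1a, Cdkn1c and Cdkn2a in the top row and Ung among the E2F targets.

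Of the 111 pathway genes, those whose profile over the 4 libraries lay nearest to that of Cdkn2a were Ascl2, Ccna1, a cyclin gene of meiotic germ cells, and Orc1, an origin-binding protein gene. The measure was the Euclidean distance between mean-centred log2 CPM, at 0.600 for Ascl2, 0.632 for Ccna1 and 0.845 for Orc1. Ccna1 had 4 and 9 counts in mutant and 15 and 13 counts in the wild-type libraries, so its profile is imprecise. With 4 libraries such a likeness is a description only, and none of the 3 genes was called.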

How the data were processed

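Polyadenylated RNA of whole testes was sequenced by the authors as single-end 100-base reads, per the labels' protocols. The submitters' processing notes list mm9 as the build and CASAVA 1.8.1, HTSeq, TopHat 1.4.0 and DESeq2 as tools, with no role or order. The deposited table was read under the unit estimated counts because its last lines hold percentages, but each gene value is a whole number and gene sums equal the table's own totals, so rounding changed nothing. The table's category lines set reads with several alignments apart. Reads in no gene made up 13.8% to 17.3% and ambiguous reads 0.602% to 0.726% of counted reads, and both were kept out of library sizes.

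edgeR 4.0.16 in R 4.3.3 was used for a quasi-likelihood test with genotype as the only term, TMM scaling, and legacy and robust options off. Low genes were removed by its expression filter (count of at least 10, total of at least 15). Tests were two-sided, with Benjamini-Hochberg adjustment over all tested genes. A positive log2 fold change means higher in mutant. Its SE is its size over the root of the F statistic, and 95% intervals use the t distribution with the fit's degrees of freedom. CPM use TMM-adjusted library sizes. Replicates of each group differed by more than sampling noise. With 2 libraries a group, an exact permutation test of 1 gene cannot give a p below 0.333, so none was used.

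Positions and exon lengths are from GENCODE M1 (NCBIM37, also called mm9). The windows before gene starts are from RefSeq on GRCm38.p6. The members, the lists and the rule for named genes were chosen with earlier results of these data known. Named are all members, up to 4 called genes per list or the 2 with the smallest p, and Mki67, Ccnd2, Cdk4, E2f1, Thra, Thrb, Sox9, Amh, Ddx4 and Acta1, of which not all are described. Marker lists of Leydig, peritubular, endothelial, macrophage, adipocyte and mesothelial cells were also summed. Alternatives were DESeq2 1.42.0, limma 3.58.1 voom, other scalings, filters and dispersion options, a block for the replicate number, and leaving out single libraries.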

Additional observations from a re-analysis of the deposited data

How the results depend on the processing

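The calls of Cdkn1a, Cdkn1c and Cdkn2a held under other scalings, filters and dispersion options and by DESeq2, and limma voom lost Cdkn1a alone. Leaving out libraries mattered more: members called ranged from 0 to 3, the pathway genes called from 0 to 3, and all genes called from 74 to 1296. With 1 library left in a group, that library is assumed to vary like the others. The number of pathway genes called was 4 by DESeq2, 2 with the replicate block and 0 with no filter on low counts, against 1 in the fit reported, and all genes called were 500 with no filter, against 838. The cause was not tested.

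Over the leave-one-out fits uncalled values changed sign for Cdkn1b (-0.0081 to 0.15), Cdkn2d (-0.19 to 0.045), Rb1 (-0.15 to 0.059), Thrb (-0.036 to 0.095) and Amh (-0.18 to 0.15). Replicate numbers do not pair the libraries by any label, and same-numbered libraries did not deviate together (r = -0.03 over genes). With the replicate block 851 genes were called, 3 of them members, among which Cdkn1c stood at 1.03, Cdkn1a at 1.09 and Cdkn2a at -1.38. Thra passed at -0.57 (adjusted p = 0.0282) and Ccnd3 at 0.38 (adjusted p = 0.0491) in that fit. Over the scalings tried the median log2 fold change of all genes lay between -0.0138 and 0.0087. Depth limits Cdkn2b and Cdkn2d, with 14 to 49 counts per library.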
